A study of Homo sapiens with 6 samples.

Results

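The genes described here encode the conjugation machinery of autophagy, the pathway by which cells enclose cytoplasm in a double membrane and deliver it to the lysosome. The members are ATG7, ATG3, ATG10, ATG12, ATG5, ATG16L1, ATG4A, ATG4B, ATG4C and ATG4D, taken by gene symbol, 10 of the 60843 genes of the deposited expression table. All 10 had a row and all 10 passed the filter on low values. RNA was sequenced from cultured human liposarcoma cells, the line SW872-S, with 3 libraries in each of 2 groups. In the group called TP53INP2_OE the cells carried a plasmid that overexpresses TP53INP2, and the group called NC was the negative control of the same line. The labels state neither the promoter of the plasmid, the time after its introduction nor whether the cells were 1 clone, and they do not say whether replicate libraries are separate cultures. The p-values therefore set the difference between the groups only against the variation among these libraries, and that variation may be technical. The submitters' design mentions 2 different sources of cells and does not name them, so any further difference between sources and the plasmid cannot be told apart.

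Members of the ATG8 family, the LC3 and GABARAP proteins, mark the growing autophagosome after they are coupled to the lipid phosphatidylethanolamine. ATG4 proteases first cut the precursors so that a glycine is left at the end, and later release ATG8 proteins from the membrane. ATG7, an enzyme of the E1 type, activates both ATG8 proteins and the ubiquitin-like protein ATG12. ATG3 passes ATG8 proteins on to the lipid, and ATG10 passes ATG12 on to ATG5. The ATG12-ATG5 conjugate and ATG16L1 form the complex that directs the lipid coupling to the membrane. TP53INP2 binds ATG8 proteins and acts when autophagosomes form, and the study asks what its overexpression does in liposarcoma cells.

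The catalytic centre of the 4 ATG4 proteases is shown first, because ATG4C rose and ATG4D fell in the deposited values. Each line gives 45 bases of coding sequence, 5′ to 3′, from GENCODE release 29 transcripts on GRCh38, with the codon of the catalytic cysteine in capitals.
ATG4A: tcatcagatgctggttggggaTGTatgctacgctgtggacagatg
ATG4B: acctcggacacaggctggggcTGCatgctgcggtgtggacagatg
ATG4C: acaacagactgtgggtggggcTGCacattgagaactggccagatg
ATG4D: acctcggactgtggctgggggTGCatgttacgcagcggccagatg
The cysteine is codon 77 in ATG4A, 74 in ATG4B, 111 in ATG4C and 144 in ATG4D. ATG4B and ATG4D share 35 of the 45 bases, and ATG4A and ATG4C, the least alike pair, share 28. ATG12 ends in the glycine that is joined to ATG5, codon 140, in capitals in the last 27 coding bases.
ATG12: tactgcaagtctcaggcgtggGGAtga

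The libraries held between 16038062 and 17607612 reads assigned to genes, recovered from the deposited FPKM values (reads scaled by gene length and library total). A single member rested on between 148 reads (ATG10) and 1454 reads (ATG12) in a library. TP53INP2 itself was at 18.9, 23.4 and 27.1 FPKM in the TP53INP2_OE libraries, against 10.6, 9.45 and 9.67 FPKM in the NC libraries (log2 fold change 1.13, limma adjusted p = 0.00282). Reads of the plasmid and of the chromosomal gene are summed in it. Of 8 mesenchymal markers 5 were at a mean of at least 0.5 FPKM, led by VIM and FN1, and COL1A2, COL3A1 and THY1 were near 0. Of 6 adipocyte markers PPARG and LPL were, and FABP4 and ADIPOQ were at 0 in all 6 libraries. No epithelial marker (4) or leukocyte marker (5) reached it. All 3 endothelial markers did, with CDH5 at 27.8 FPKM in TP53INP2_OE and 32.3 FPKM in NC. The mesenchymal sum, mostly VIM and FN1, was 1550 to 1620 FPKM in TP53INP2_OE and 1501 to 1592 FPKM in NC, and the adipocyte sum was 19.2 to 19.5 FPKM in TP53INP2_OE and 19.0 to 20.5 FPKM in NC. The endothelial sums, mostly CDH5, did not overlap, at 32.0 to 33.4 FPKM in TP53INP2_OE and 34.5 to 39.1 FPKM in NC. PECAM1 (3.96 against 3.70 FPKM) and VWF (0.813 against 0.699 FPKM) had higher means in TP53INP2_OE than in NC, and neither passed the test. Among single markers COL1A1 (-0.44), PDGFRB (-0.41), COL6A3 (-0.20) and CDH5 (-0.21) fell and FN1 rose (0.15) on the log2 scale. With GC content and length fitted out COL1A1 (-0.19) and LPL (-0.23) fell and the others did not pass (limma adjusted p). The part of these markers in the results below was not tested.

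In cells with the TP53INP2 plasmid, RNA of ATG5, ATG12 and ATG4C was higher and RNA of ATG4D was lower than in NC cells. The other 6 members, ATG7, ATG3, ATG10, ATG16L1, ATG4A and ATG4B, did not pass the test. In such bulk RNA, fewer cells that express a gene and less RNA per cell cannot be told apart. These 4 calls of 10 stand beside a background in which 35.0% of the 14791 tested genes passed, 16.4% rising and 18.6% falling (limma on log2(FPKM + 1), adjusted p below 0.05), so the share of members called was near that of all genes. The median log2 fold change of the members was 0.13, and 0.0032 over all tested genes. The median absolute log2 fold change was 0.21 for the members and 0.18 for all tested genes. When the dependence of the values on GC content and gene length was fitted out of each library, none of the 10 members passed, against 10.4% of 14548 genes (4.53% rising, 5.88% falling), and 3 members had an unadjusted limma p below 0.05. By limma's voom on the recovered reads 7 members passed, 5 rising and 2 falling, against 41.7% of all genes (20.2% rising, 21.4% falling).

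**Figure D1:**
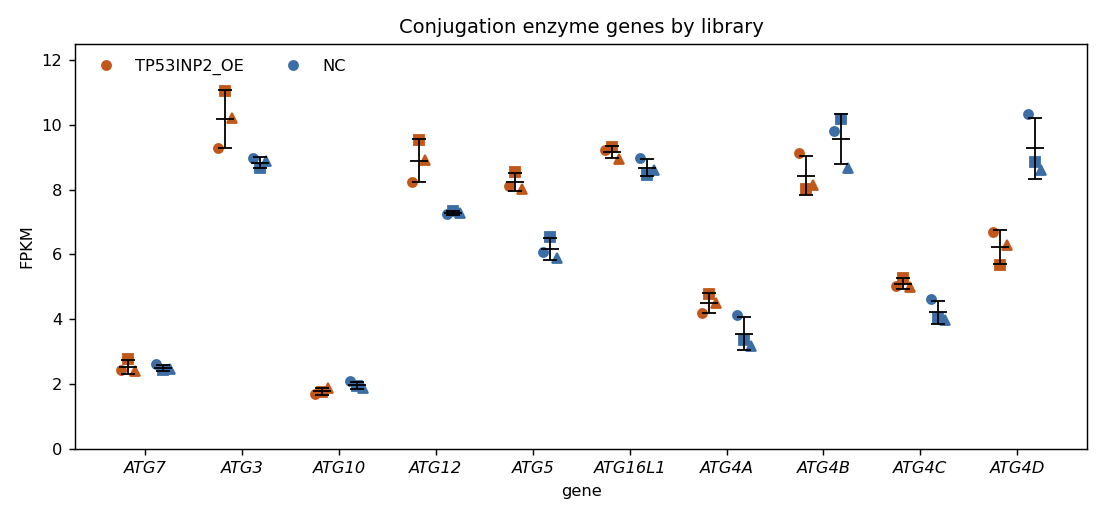
FPKM of the 10 genes in each library, TP53INP2_OE in orange to the left and NC in blue to the right of each gene; circles, squares and triangles are replicates 1, 2 and 3, and bars are the mean and SD of 3 libraries. ATG5, ATG12, ATG4C, ATG3 and ATG4A lie fully higher and ATG4D and ATG10 fully lower in TP53INP2_OE. Of all tested genes, 25.2% lie fully higher and 25.6% fully lower.

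ATG7, the E1-type enzyme at the head of both branches, was among the lowest members. It had 2.43, 2.78 and 2.39 FPKM in TP53INP2_OE libraries, against 2.60, 2.43 and 2.47 FPKM in NC libraries. The groups overlapped. Its log2 fold change was 0.011, with a 95% interval of -0.15 to 0.17 (limma adjusted p = 0.919), which leaves room for a change of that size either way. ATG7 lies on chromosome 3, positions 11272309 to 11557665, plus strand, and is a protein-coding gene like all members (GRCh38, positions as the deposited table gives them). It overlaps VGLL4 on the other strand by 1597 bases, and the sources used here do not state whether counting used the strand.

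ATG3, the E2-type enzyme that hands ATG8 proteins to the lipid, lies on chromosome 3, positions 112532510 to 112562046, minus strand. It had 9.27, 11.1 and 10.2 FPKM in TP53INP2_OE libraries, against 8.98, 8.66 and 8.87 FPKM in NC libraries. All TP53INP2_OE values were above all NC values, though replicate 1 only just so. The log2 fold change of 0.18 (SE 0.063) did not pass over all genes (limma adjusted p = 0.0651). ATG3 passed without TP53INP2_OE replicate 1 (0.24, adjusted p = 0.0206) and by limma's voom on the recovered reads (adjusted p = 0.0129).

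ATG10, the E2-type enzyme for ATG12, was the lowest member in both groups. Its values were 1.68, 1.76 and 1.87 FPKM in TP53INP2_OE libraries, against 2.08, 1.93 and 1.88 FPKM in NC libraries. The TP53INP2_OE values were all below the NC values, but the highest of them and the lowest NC value were almost equal. The log2 fold change was -0.097, with an interval of -0.26 to 0.069 (limma adjusted p = 0.323). ATG10 spans 304835 bases of chromosome 5, positions 81972023 to 82276857, plus strand. RPS23, a ribosomal protein gene with 2679 to 3280 reads, overlaps it on the other strand over 3538 bases, so the value of ATG10, with 148 to 186 reads, is uncertain.

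ATG12, the ubiquitin-like protein of the second branch, lies on chromosome 5, positions 115828200 to 115841837, minus strand. It had 8.22, 9.55 and 8.91 FPKM in TP53INP2_OE libraries, against 7.24, 7.34 and 7.27 FPKM in NC libraries. The groups did not overlap, and the spread within NC was small. ATG12 rose by 0.25 on the log2 scale (SE 0.057, limma adjusted p = 0.0150). The call was lost after the correction for GC content and length, which left 0.040 (adjusted p = 0.582), and without NC replicate 1 (0.25, adjusted p = 0.0534). AP3S1, with 1374 to 1849 reads against 1046 to 1454 for ATG12, overlaps it on the other strand by 246 bases. An ATG12 pseudogene on another chromosome had at most 18 reads.

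ATG5, the protein to which ATG12 is joined, had the largest increase of the members. Its values were 8.12, 8.56 and 8.02 FPKM in TP53INP2_OE libraries, against 6.08, 6.54 and 5.91 FPKM in NC libraries. Each TP53INP2_OE library was well above each NC library. The means were 8.23 ± 0.28 FPKM in TP53INP2_OE and 6.17 ± 0.33 FPKM in NC (SD, n = 3 each), a ratio of 1.33. The log2 fold change was 0.36 with an interval of 0.24 to 0.49 (limma adjusted p = 0.00400), and the corrected value of 0.17 did not pass (adjusted p = 0.0855). Permuting the 6 libraries exactly gave a two-sided p = 0.1, which is the smallest possible with 3 against 3. ATG5 lies on chromosome 6, positions 106045423 to 106325791, minus strand, where PRDM1 overlaps 64517 bases of its span on the other strand. PRDM1 had 615 to 878 reads and ATG5 560 to 831, and whether the overlap adds to the value of ATG5 was not tested.

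ATG16L1, the scaffold that brings the ATG12-ATG5 conjugate to membranes, moved less. It had 9.23, 9.31 and 8.95 FPKM in TP53INP2_OE libraries, against 8.98, 8.45 and 8.62 FPKM in NC libraries, and the groups overlapped by a narrow margin. The log2 fold change of 0.070, with an interval of -0.029 to 0.17, did not pass (limma adjusted p = 0.239). ATG16L1 lies on chromosome 2, positions 233210051 to 233295674, plus strand. The ratios between the 3 partners of the complex are given as a description, with no test. They use the deposited values, and were not computed with GC content and length fitted out. With that correction the log2 fold changes were 0.17 for ATG5, 0.068 for ATG16L1 and 0.040 for ATG12. The ratio of ATG16L1 FPKM to ATG5 FPKM was 1.14, 1.09 and 1.12 in TP53INP2_OE libraries, against 1.48, 1.29 and 1.46 in NC libraries. The ratio of ATG12 FPKM to ATG5 FPKM was 1.01, 1.12 and 1.11 in TP53INP2_OE libraries, against 1.19, 1.12 and 1.23 in NC libraries, and these groups all but touched.

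**Figure D2:**
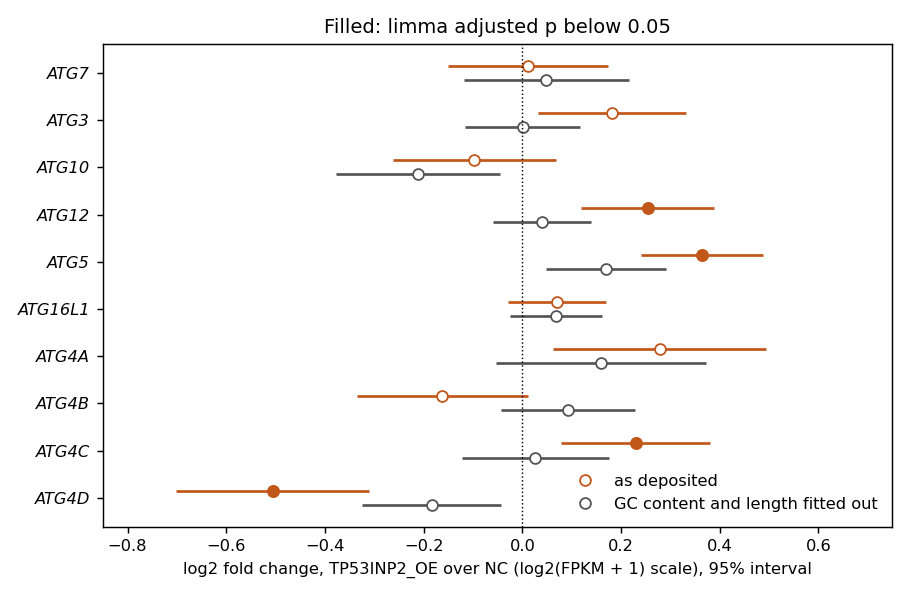
Log2 fold change of each gene, TP53INP2_OE over NC, with its 95% interval, as deposited (orange) and after the GC content and length correction (grey); filled points passed limma's adjusted p of 0.05. ATG12, ATG5, ATG4C and ATG4D are filled in orange, and no grey point is filled.

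Of the ATG4 proteases, ATG4C rose, ATG4D fell, and ATG4A and ATG4B did not pass, while none of the 4 passed after the correction for GC content and length. ATG4B, the best studied and in NC the highest of them, had 9.13, 8.02 and 8.15 FPKM in TP53INP2_OE libraries, against 9.82, 10.2 and 8.68 FPKM in NC libraries. The groups overlapped, and its log2 fold change of -0.16, with an interval of -0.34 to 0.011, did not pass (limma adjusted p = 0.130). It passed by voom (-0.18, adjusted p = 0.0381), and it was 0.093 after the correction for GC content and length (adjusted p = 0.340), so its direction depended on that correction. ATG4B lies on chromosome 2, positions 241637213 to 241673857, plus strand.

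ATG4D, a protease that caspase-3 can cut, lies on chromosome 19, positions 10543895 to 10553418, plus strand, and had the largest change of the members in the deposited values. It had 6.70, 5.67 and 6.31 FPKM in TP53INP2_OE libraries, against 10.3, 8.85 and 8.62 FPKM in NC libraries. No library of one group reached the range of the other. The means were 6.23 ± 0.52 FPKM in TP53INP2_OE and 9.27 ± 0.93 FPKM in NC (SD, n = 3 each), a ratio of 0.672. ATG4D fell by 0.51 on the log2 scale (SE 0.082, limma adjusted p = 0.00571; exact two-sided permutation p = 0.1). Its corrected value was -0.18 and did not pass (adjusted p = 0.1001), and ATG10 then had the largest change, at -0.21 (adjusted p = 0.105). KRI1, with 521 to 828 reads against 222 to 384 for ATG4D, overlaps ATG4D on the other strand by 334 bases.

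ATG4C, whose full-length product has low activity on ATG8 proteins, lies on chromosome 1, positions 62784132 to 62865516, plus strand. Its values were 5.02, 5.29 and 5.01 FPKM in TP53INP2_OE libraries, against 4.63, 4.03 and 3.98 FPKM in NC libraries. The groups were apart, and NC replicate 1 was nearest to TP53INP2_OE. ATG4C rose by 0.23 (SE 0.063, limma adjusted p = 0.0304). This was the least stable of the 4 calls. It was lost without NC replicate 2 (adjusted p = 0.0983), without NC replicate 3 (0.0880), without TP53INP2_OE replicate 1 (0.0607), 2 (0.0884) or 3 (0.0640), with no filter on low values (0.0752), and after the correction (0.026, adjusted p = 0.834).

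ATG4A, a protease that acts mainly on the GABARAP branch, had 4.20, 4.79 and 4.51 FPKM in TP53INP2_OE libraries, against 4.13, 3.36 and 3.16 FPKM in NC libraries. The ranges did not overlap, but TP53INP2_OE replicate 1 and NC replicate 1 were close. The log2 fold change of 0.28 (SE 0.090) was larger than that of ATG4C and yet just missed the threshold (limma adjusted p = 0.0525). It passed without NC replicate 1 (0.37, adjusted p = 0.0258) and by voom (0.36, adjusted p = 0.0212). ATG4A lies on the X chromosome, positions 108091668 to 108154671, plus strand.

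Seen as shares of the summed ATG4 FPKM, which is a level per gene length, ATG4D took 26.7%, 23.9% and 26.3% in TP53INP2_OE libraries, against 35.8%, 33.5% and 35.3% in NC libraries. ATG4B took 36.5%, 33.7% and 34.0% in TP53INP2_OE libraries, against 33.9%, 38.5% and 35.5% in NC libraries, and these overlapped. ATG4A and ATG4C took larger shares in TP53INP2_OE. The mean share of ATG4A was 18.6 ± 1.71% in TP53INP2_OE and 13.3 ± 0.85% in NC, and that of ATG4C was 21.1 ± 1.12% in TP53INP2_OE and 15.8 ± 0.54% in NC (SD, n = 3 each). The sum itself was 24.3 ± 0.69 FPKM in TP53INP2_OE and 26.6 ± 2.24 FPKM in NC, and 1 TP53INP2_OE library overlapped NC. The size of each share rests on the deposited gene lengths, 6638 bases for ATG4B and 2278 for ATG4D. Their longest transcripts have 3294 and 1949 bases. In NC libraries ATG4B had 1027 to 1196 reads and ATG4D 350 to 384, so how the shares of different paralogs compare is uncertain. The shares were taken from the deposited values, and shares with GC content and length fitted out were not computed. The longest transcripts have 34.8% GC for ATG4C, 42.5% for ATG4A, 60.9% for ATG4B and 64.8% for ATG4D. With that correction the log2 fold change was -0.18 for ATG4D, 0.026 for ATG4C, 0.16 for ATG4A and 0.093 for ATG4B, and none passed. No test was run on shares, since the members were chosen with results of these data known.

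**Figure D3:**
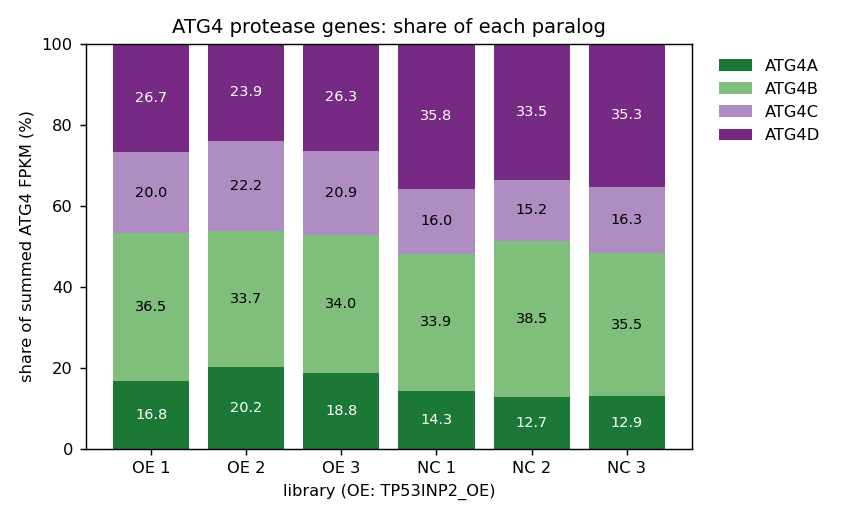
Share of each ATG4 paralog in the summed ATG4 FPKM as deposited, in percent, without the correction for GC content and length. The 3 TP53INP2_OE libraries are on the left and the 3 NC libraries on the right. The ATG4D segment is between 23.9% and 26.7% in TP53INP2_OE and between 33.5% and 35.8% in NC.

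The order of levels differed between the groups. In TP53INP2_OE, ATG3 was highest at a mean of 10.2 FPKM, followed by ATG16L1 (9.16), ATG12 (8.89), ATG4B (8.43) and ATG5 (8.23), and each of these overlapped the next over the libraries. Below them came ATG4D (6.23), ATG4C (5.10), ATG4A (4.50), ATG7 (2.53) and ATG10 (1.77), and each of these steps was larger than the spread of the libraries. In NC, ATG4B (9.56), ATG4D (9.27), ATG3 (8.84) and ATG16L1 (8.68) were highest and overlapped from one to the next. ATG12 (7.28) and ATG5 (6.17) followed, each apart from its neighbours, then ATG4C (4.21) and ATG4A (3.55), which overlapped, and ATG7 (2.50) and ATG10 (1.96). ATG4D was thus second in NC and 6th in TP53INP2_OE, while ATG7 and ATG10 were lowest in both groups. These ranks are those of the deposited values, and ranks with GC content and length fitted out were not computed. With that correction the fall of ATG4D did not pass (-0.18, limma adjusted p = 0.1001). This order rests on the deposited gene lengths, which exceed the longest transcript by uneven amounts. The length was 8833 against 4959 bases for ATG7, 6638 against 3294 for ATG4B and 2278 against 1949 for ATG4D. ATG7 had 342 to 421 reads and ATG4A, placed above it, 165 to 241, so the order between genes is uncertain. Over all members the libraries of TP53INP2_OE were fully higher for 5 genes and fully lower for 2. The same holds for 25.2% and 25.6% of all tested genes.

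The members that rose and the one that fell differ in base composition, and the coding sequences make this visible. Each line holds the first 120 coding bases, 5′ to 3′, from GENCODE release 29 on GRCh38, with G or C at the third codon position in capitals.
ATG5: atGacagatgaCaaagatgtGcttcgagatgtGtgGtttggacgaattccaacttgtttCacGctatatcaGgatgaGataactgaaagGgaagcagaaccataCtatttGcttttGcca
ATG4C: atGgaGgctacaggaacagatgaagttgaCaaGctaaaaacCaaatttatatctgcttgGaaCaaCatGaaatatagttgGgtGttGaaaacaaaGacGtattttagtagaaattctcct
ATG4D: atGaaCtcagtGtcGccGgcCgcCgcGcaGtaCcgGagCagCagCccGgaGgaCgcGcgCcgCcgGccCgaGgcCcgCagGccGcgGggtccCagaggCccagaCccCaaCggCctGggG
Of these 40 codons, 13 end in G or C in ATG5, 14 in ATG4C and 36 in ATG4D. Over the whole coding sequence the share was 32.6%, 29.4% and 78.7%. The GC content of the longest transcript was 34.8% for ATG4C, 37.5% for ATG12, 38.8% for ATG5, 39.9% for ATG3, 42.5% for ATG4A and 43.2% for ATG10. It was 48.5% for ATG16L1, 50.8% for ATG7, 60.9% for ATG4B and 64.8% for ATG4D. The median of 11270 tested protein-coding genes was 48.3%, and ATG4C was at the 1.33 and ATG4D at the 96.1 percentile of these.

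Most members followed this order, with ATG10 the clearest exception. Spearman's rho of log2 fold change with GC content was -0.82 over the 10 members and -0.78 over the 11270 protein-coding genes, with genes as the units, which share the same 6 libraries. ATG4C and ATG12 lie in the lowest of 10 equal bins of GC content, in which 686 of 1127 genes rose and 4 fell. ATG3 and ATG5 lie in the next bin, with 576 rising and 12 falling. ATG4D lies in the highest bin, where 2 rose and 753 fell, and ATG4B in the bin below it, where 5 rose and 638 fell. ATG4A lies in the bin with 426 rising and 20 falling, and ATG7 and ATG16L1 in one with 70 rising and 174 falling. ATG7 (0.011) and ATG16L1 (0.070) had small positive log2 fold changes, against the direction of most genes called in that bin, and neither passed. ATG10 lies in a bin where 292 rose and 34 fell, yet its own log2 fold change was -0.097. The deviation of a library from the gene mean changed by -0.075, -0.16 and -0.088 per 10 points of GC content on the log2 scale in TP53INP2_OE libraries, against 0.13, 0.11 and 0.082 in NC libraries. As every library of one group lay on the same side, this trend and the group cannot be told apart.

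**Figure D4:**
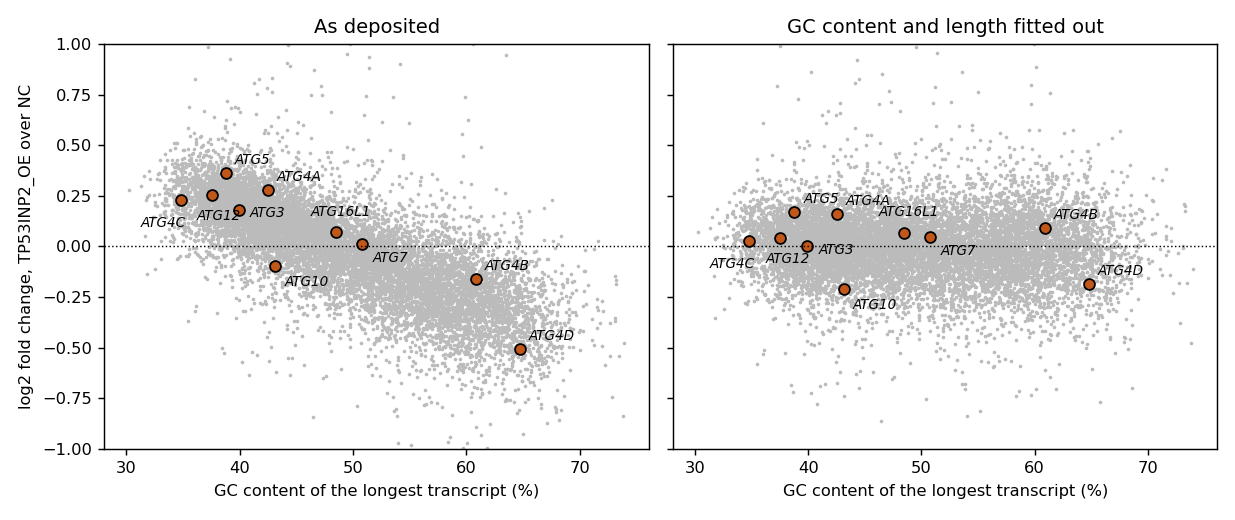
Log2 fold change, TP53INP2_OE over NC, against the GC content of the longest transcript, for 11270 tested protein-coding genes (grey) and the 10 members (orange), as deposited (left) and after the GC content and length correction (right); 16 and 15 genes lie outside the vertical axis. ATG5, ATG12 and ATG4C sit in the upper left and ATG4D in the lower right of the left panel, and all 10 members lie between -0.21 and 0.17 in the right panel.

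With GC content and gene length fitted out, ATG5 had a log2 fold change of 0.17 with an interval of 0.048 to 0.29 (limma adjusted p = 0.0855). ATG4D was at -0.18, with an interval of -0.33 to -0.043 (adjusted p = 0.1001), and ATG10 at -0.21, with an interval of -0.38 to -0.046 (adjusted p = 0.105). These were the 3 members with an unadjusted p below 0.05, a level that 27.7% of all genes reached. ATG12 was at 0.040 and ATG4C at 0.026, with intervals of -0.059 to 0.14 and -0.12 to 0.17. ATG3 was at 0.00049, so that nearly all of its 0.18 went with the correction, while ATG4A (0.16), ATG16L1 (0.068) and ATG7 (0.049) kept their sign. TP53INP2 stayed at 1.30 (adjusted p = 0.00695). Such a correction removes any change tied to GC content, whatever its source, and which source applied was not tested.

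**Figure D5:**
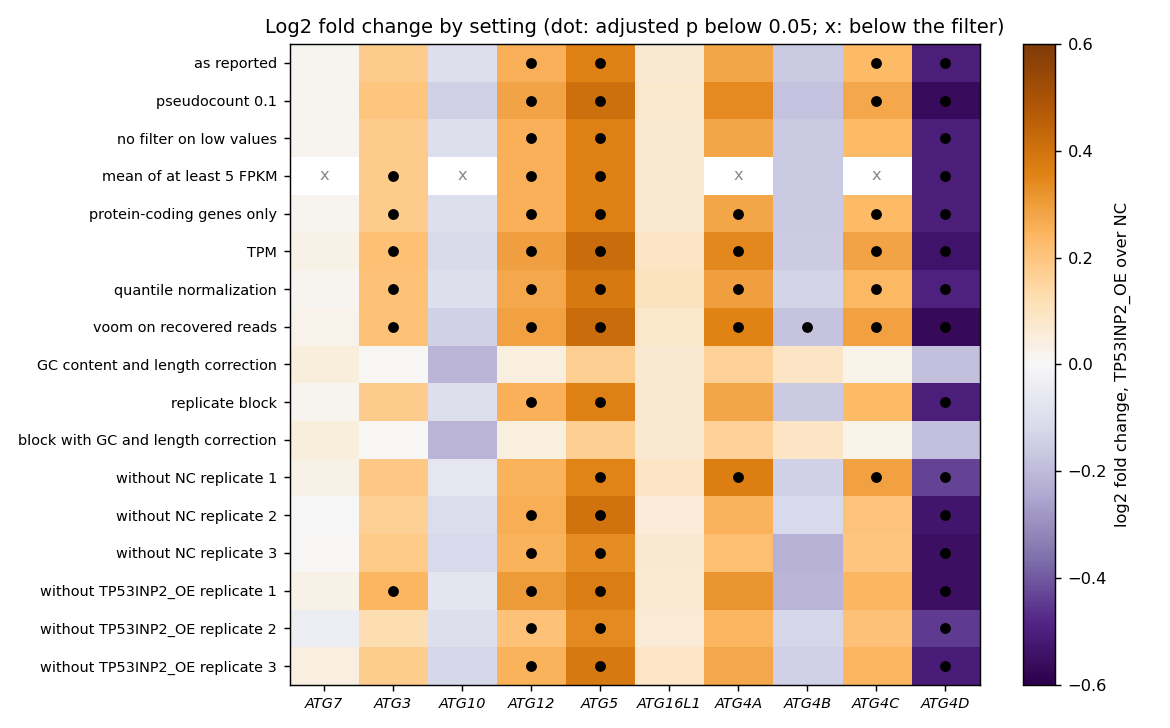
Log2 fold change of each gene (columns), TP53INP2_OE over NC, under each setting of the analysis (lines), on a colour scale from -0.6 to 0.6; a dot marks an adjusted p below 0.05 and an x a gene below the filter. The columns of ATG5 and ATG4D carry a dot in 15 of 17 settings, and the 2 without one are those with GC content and length fitted out.

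The promoters of the 3 genes that rose in the deposited values are given as a description, and shared control of these genes was not tested. They run from 250 bases before to 50 bases after the start, from RefSeq on GRCh38.p14, and capitals mark matches to the motifs searched.
ATG5, chr6:106325388-106325687, minus strand: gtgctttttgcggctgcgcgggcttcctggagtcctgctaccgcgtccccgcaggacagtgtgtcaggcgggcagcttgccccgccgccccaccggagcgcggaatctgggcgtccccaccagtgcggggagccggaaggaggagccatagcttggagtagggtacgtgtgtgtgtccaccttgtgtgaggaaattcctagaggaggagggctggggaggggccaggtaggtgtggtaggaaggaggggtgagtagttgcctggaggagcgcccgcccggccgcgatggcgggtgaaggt
ATG12, chr5:115841516-115841815, minus strand: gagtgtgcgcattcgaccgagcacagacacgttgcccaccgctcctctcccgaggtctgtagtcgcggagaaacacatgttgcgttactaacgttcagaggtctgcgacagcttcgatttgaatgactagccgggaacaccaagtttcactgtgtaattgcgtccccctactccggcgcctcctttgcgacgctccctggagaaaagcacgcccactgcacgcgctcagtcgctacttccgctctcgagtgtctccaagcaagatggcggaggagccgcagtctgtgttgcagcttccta
ATG4C, chr1:62783882-62784181, plus strand: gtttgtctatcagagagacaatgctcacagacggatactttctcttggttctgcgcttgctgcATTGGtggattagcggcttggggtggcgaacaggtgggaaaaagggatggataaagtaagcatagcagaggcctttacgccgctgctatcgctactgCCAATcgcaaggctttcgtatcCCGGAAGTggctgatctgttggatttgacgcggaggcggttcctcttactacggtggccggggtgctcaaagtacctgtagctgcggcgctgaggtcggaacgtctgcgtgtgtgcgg
Searched on both strands were the E-box CACGTG, the FOXO core GTAAACA, the ETS core CCGGAAGT, the CCAAT box CCAAT, the cyclic AMP response element TGACGTCA and the TATA motif TATAAA, together with 2 motifs of 10 letters, the CLEAR element, which contains the E-box, and the NRF1 core. ATG4C held 2 CCAAT boxes and 1 ETS core, and the windows of ATG5 and ATG12 shown here held no match. Among 10 promoter entries of 9 members, ATG3 alone held E-boxes, 2 of them, where 7.26% of all 35116 promoters hold at least 1. None held the CLEAR element, the FOXO core, the NRF1 core or the cyclic AMP response element, which 0.353%, 3.42%, 1.24% and 1.85% of all promoters hold. The ETS core was in 2 entries, those of ATG4C and ATG7, and in 4.14% of all, and TATAAA was in the second ATG5 entry and in 11.5% of all. CCAAT boxes were in 5 of the 10 entries and in 34.6% of all. The promoters of the members had a GC content of 55.0% to 76.7%, apart from a second, downstream entry of ATG5 at 27.7%, and the median of all promoters was 58.7%. ATG4C (55.0%) and ATG12 (57.7%) lay below that median, ATG3 (59.0%) and ATG4A (61.0%) just above it, and the first entry of ATG5 was at 67.0%. ATG4D had no entry.

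The genes with the pattern most like that of ATG5 were TENT2, ODF2L and BRWD3, by the Euclidean distance between centred log2(FPKM + 1) values over 6 libraries among 11278 protein-coding genes. Their distances were 0.016, 0.041 and 0.053, and their log2 fold changes 0.36, 0.36 and 0.36. The distance includes the difference between the groups, so near genes have like log2 fold changes by the way they were picked. For ATG4D the nearest were XRCC3, CDC42EP1 and SCARA3, at distances of 0.058, 0.070 and 0.071 and log2 fold changes of -0.50, -0.50 and -0.50. The first 3 have transcripts of 35.6% to 38.8% GC and the others of 58.6% to 66.4% GC.

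Among the substrates of the cascade, the ATG8 genes, 2 of 6 tested rose and 1 fell, with a median log2 fold change of 0.15, beside 16.4% rising and 18.6% falling over all tested genes, whose median was 0.0032. MAP1LC3B, which encodes LC3B, was at 31.7 ± 1.87 FPKM in TP53INP2_OE and 23.7 ± 0.50 FPKM in NC (SD, n = 3 each), and kept its call with GC content and length fitted out (0.44, limma adjusted p = 0.00956). MAP1LC3B2, a near copy that may share its reads and is uncertain, rose by 0.33. MAP1LC3A fell by 0.30, and the correction took it to 0.028. MAP1LC3C was below the filter. With GC content and length fitted out, 2 of these genes rose and none fell, beside 4.53% and 5.88% of all genes.

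Of 5 genes that recruit or resemble parts of the ATG16L1 complex, 2 rose and 1 fell, with a median of -0.062. Over all tested genes 16.4% rose and 18.6% fell. RB1CC1, the FIP200 scaffold that binds ATG16L1, rose by 0.33 but did not pass after the correction (0.12, limma adjusted p = 0.0537). ATP6V1H, a subunit of the lysosomal proton pump, rose by 0.42 and kept its call after the correction (0.41, limma adjusted p = 0.00791). TECPR1, which binds the ATG12-ATG5 conjugate in place of ATG16L1, fell by 0.33, and its corrected value was -0.068. With the correction 1 of the 5 rose and none fell, beside 4.53% and 5.88% of all genes. Of 18 other genes of autophagosome formation 6 rose and 1 fell, with a median of 0.060, a share called near the 35.0% of all tested genes. Those that rose were the lipid scramblase genes TMEM41B (0.35) and VMP1 (0.33), the lipid kinase subunits PIK3C3 (0.30), NRBF2 (0.22) and PIK3R4 (0.19), and the lipid transfer gene ATG2B (0.28). ATG101, of the ULK kinase complex, fell by 0.43. None of these 7 passed with GC content and length fitted out, where ATG9A (0.23) and WDR45 (0.24) did, beside 10.4% of all genes. Of 9 activating enzymes for ubiquitin and related proteins, the relatives of ATG7, 3 rose and 2 fell, with a median of 0.20. The background was again 16.4% rising and 18.6% falling. UBA6, NAE1 and UBA2 rose by 0.41, 0.30 and 0.20, and SAE1 and UBA1 fell by 0.24 and 0.13. After the correction SAE1 alone passed, at -0.19, beside 10.4% of all genes.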

How the data were processed

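RNA sequencing libraries of SW872-S cells, 3 TP53INP2_OE and 3 NC, were grouped by the sample titles. The authors deposited FPKM values per gene with gene name, position, length and type, per the file headers. Per the submitters' processing notes, the tools and builds named are Bowtie 0.12.2, GRCh38 and mm8, without their roles. How reads were counted per gene, and with which annotation, the sources used here do not say. GENCODE release 29 (GRCh38) held 96.1% of the gene IDs, and of those 99.9% matched in chromosome and 92.8% in start or end. FPKM times length, divided by the smallest value above 0 of a library, gave whole reads for 100.0% of values above 0 within a tolerance of 0.01, which gives the depth.

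Groups were compared with limma 3.58.1 (R 4.3.3, empirical Bayes with trend) on log2(FPKM + 1), a scale that understates changes of low genes, over the 14791 genes whose mean FPKM reached 0.5. Benjamini-Hochberg adjustment ran over all of them, with a threshold of 0.05. For the GC correction, a library's departures from the mean of each gene were regressed on natural splines (df 5 each) of the GC content of the longest GENCODE transcript and of log2 gene length, and the fit was subtracted together with the library's mean deviation. Scripts were tested on simulated data. Alternatives were a pseudocount of 0.1, no filter, a mean of 5 FPKM, protein-coding genes only, TPM, quantile normalization, limma's voom on the recovered reads, the replicate block and leaving out each library.

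The members and lists were chosen with earlier results of these data known, so lists are described by counts and medians only. Named genes are all members, TP53INP2, every member of the 4 pathway lists past the threshold and the 3 nearest genes of the members with the largest increase and decrease; ATG9A, WDR45, MAP1LC3C, the overlapping genes and the markers were named after their values were seen. Every pair of libraries differed by more than sampling noise (chi-square over its df 2.48 to 4.60 within groups, 12.2 to 29.2 between them).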

Additional observations from a re-analysis of the deposited data

How the results depend on the processing

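ATG5 and ATG4D kept their calls in every setting but the 2 with GC content and length fitted out, with log2 fold changes of 0.17 to 0.42 and -0.57 to -0.18 over 17 settings. TP53INP2 kept its call in all of them. Of the 10 members, 5 rose and 1 fell with protein-coding genes only, with TPM and with quantile normalization. With protein-coding genes only, 2674 of 11278 genes rose and 3053 fell. Of 14791 genes, 2661 rose and 2550 fell with TPM, and 2712 rose and 2497 fell with quantile normalization. By voom 7 members passed, 5 rising and 2 falling, beside 41.7% of all genes. After the correction for GC content and length 0 members passed (0 rising, 0 falling), and 1514 genes did, 659 rising and 855 falling, with 6 of the pathway list genes against 18 before. With the replicate block and this correction together the counts were 0 members, 671 genes (268 rising, 403 falling) and 3 list genes. ATG4B turned to 0.093 in both corrected fits, with and without the block.

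Leaving out 1 library gave 3 to 4 members past the threshold, 2 to 3 rising and 1 falling in each case, and 3276 to 4779 genes, 1460 to 2203 rising and 1816 to 2576 falling. The lowest counts came without NC replicate 1 (3276, of which 1460 rose and 1816 fell), and without NC replicate 2 the number rising was 1614. ATG7 was at -0.0035 without NC replicate 2 and at -0.038 without TP53INP2_OE replicate 2, and at most 0.040. The difference in the share of ATG4D was -9.21 points, and -9.88 to -8.32 with 1 library left out. This share was checked in no other setting, and was not computed with GC content and length fitted out.

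Correction with 1 library left out, added after seeing the data, gave 0 members in each case, and 201 to 956 genes (91 to 390 rising, 110 to 566 falling) with 2 to 3 list genes. The lowest came without NC replicate 1; without the others in turn the counts were 667 (NC replicate 2), 589 (NC replicate 3), 956, 573 and 647 (TP53INP2_OE replicates 1, 2 and 3). There ATG3 lay between -0.036 and 0.043, ATG4C between -0.013 (without NC replicate 3) and 0.086, and ATG7 between -0.0098 (without TP53INP2_OE replicate 2) and 0.079.

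Same-numbered libraries showed little shared deviation: the correlations of their deviations were 0.017, 0.012 and 0.011. Not every library was nearest to its own number. The main fit used the numbers only as names of samples, and whether they mark a shared batch cannot be told from these values. The fit with the replicate block called 4396 genes and 3 members, and ATG4C was lost (adjusted p = 0.0631). The cause of these changes was not tested. The depth limits ATG10 and ATG4A most, at 148 and 165 reads in the lowest library.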
